A study of Mus musculus with 4 samples.

Results

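Mural cells wrap the endothelial tube of blood vessels. Pericytes sit on capillaries inside the shared basement membrane, and smooth muscle cells ring arterioles with an actin and myosin apparatus. In the retina, pericytes are dense, are recruited by endothelial PDGF-B acting on the receptor PDGFRB, and help to keep the blood-retina barrier closed. They share this basement membrane with endothelial cells, and their RNA can travel with sorted endothelium. How mural RNA came into the present sorts was not tested.

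The genes described here are 32 listed markers of these cells, of 54446 genes in the deposited table, and each was found by its gene name. They were split by role into 15 pericyte markers, 11 genes of the contractile apparatus and 6 genes shared by mural cells or less restricted to them. RNA was sequenced from endothelial cells that flow cytometry had isolated from C57BL/6 mouse retinas on postnatal day 16, with 100 cells in each library. The 2 control libraries have the genotype "control" in the labels. The 2 Zeb1-CKO libraries are named for a conditional knockout in their titles, while their genotype field reads "Zeb1 knockdown". Zeb1 encodes a zinc-finger transcription factor that binds E-box sequences and represses epithelial genes. The sources used here do not give the Cre driver, the alleles, the sort markers or any pooling of animals. The question is how these mural transcripts differ between sorts from control and Zeb1-CKO retinas.

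Values are FPKM, fragments counted per transcript length and library size, as deposited by the authors. Depth, estimated from the steps between low values, was 11180000 to 21950000 fragments per library, with control 2 the shallowest. Zeb1 itself measured 10.7 and 11.1 FPKM in control sorts against 8.66 and 7.07 FPKM in Zeb1-CKO sorts, with a limma adjusted p of 0.235. Among 12 pan-endothelial genes, 0 passed the test, and the smallest adjusted p by limma was 0.133. At an unadjusted p under 0.05, Egfl7 and Robo4 were higher and Ptprb lower, against 10.5% and 7.35% of all tested genes. The summed expression of the 12 genes ran from 3918 to 4822 FPKM, so the labelled cell type was present in every library.

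The mural signal was large in all 4 libraries. The 32 genes together took 1.21% and 0.982% of all FPKM in controls 1 and 2, and 0.821% and 0.915% in Zeb1-CKO 1 and 2. Rgs5, a regulator of G-protein signalling that is among the strongest pericyte transcripts, ranked between 13 and 17 among all genes in the 4 libraries. It made up 46.7% to 51.6% of the summed mural FPKM. In each library 29 of the 32 genes reached 1 FPKM. The 3 that did not were Cnn1, Lmod1 and Pln, all of the contractile group.

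**Figure D1:**
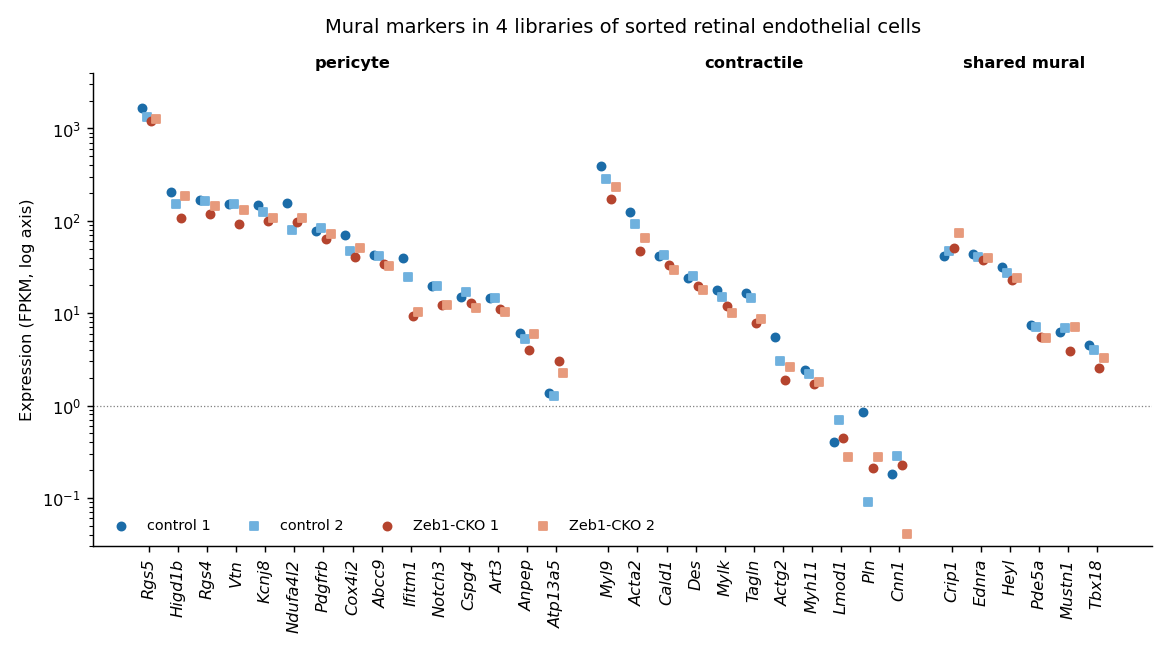
Expression of each of the 32 mural markers in FPKM (vertical log axis), by gene and role (horizontal axis), with 1 point for each of the 4 libraries and a dotted line at 1 FPKM. Rgs5 stands above 1000 FPKM in every library, and Cnn1, Lmod1 and Pln lie below 1 FPKM.

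Most mural markers had lower values in the Zeb1-CKO sorts. A test was run where the mean over libraries reached 1 FPKM, which 29 of the 32 did. Of these 29 genes, 27 had a negative log2 fold change, against 47.2% of all 13651 tested genes. That count was 24 without Zeb1-CKO replicate 1, 26 without control replicate 1 and 26 under quantile normalization, where the value of Rgs5 turned positive. Both Zeb1-CKO libraries lay below both controls for 22 of the 29, against 22.3% of all tested genes. Few of the differences passed the test for single genes. By limma with a Benjamini-Hochberg adjusted p under 0.05 over all tested genes, 2 members fell, Ifitm1 and Tagln, and none rose. Of all tested genes, 0.901% were called lower and 2.23% higher, or 3.13% in either direction. At an unadjusted p under 0.05, 14 members were lower and 1 was higher, against 7.35% and 10.5% of all tested genes. The count of 14 was lower in every fit that left out 1 library. With all libraries kept, it ranged from 7 with the replicate number as a block to 18 under median-ratio scaling and quantile normalization. In RNA from a pool of cells, fewer cells of a type and less RNA per cell cannot be told apart.

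The contractile genes were lower by more than the pericyte markers. Their median log2 fold change was -0.60 over 8 tested genes, which is 66.0% of the control level on the FPKM + 1 scale. The pericyte median was -0.34 over 15 genes, or 78.9% on that scale, and the shared group had a median of -0.29 over 6. Percentages given below for single genes are of the control mean in FPKM. The median over all tested genes was 0.02. The difference between the first 2 medians is a description and carries no test. It was -0.26 with all libraries and -0.10 without control replicate 1. The pericyte median was -0.23 without Zeb1-CKO replicate 1.

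**Figure D2:**
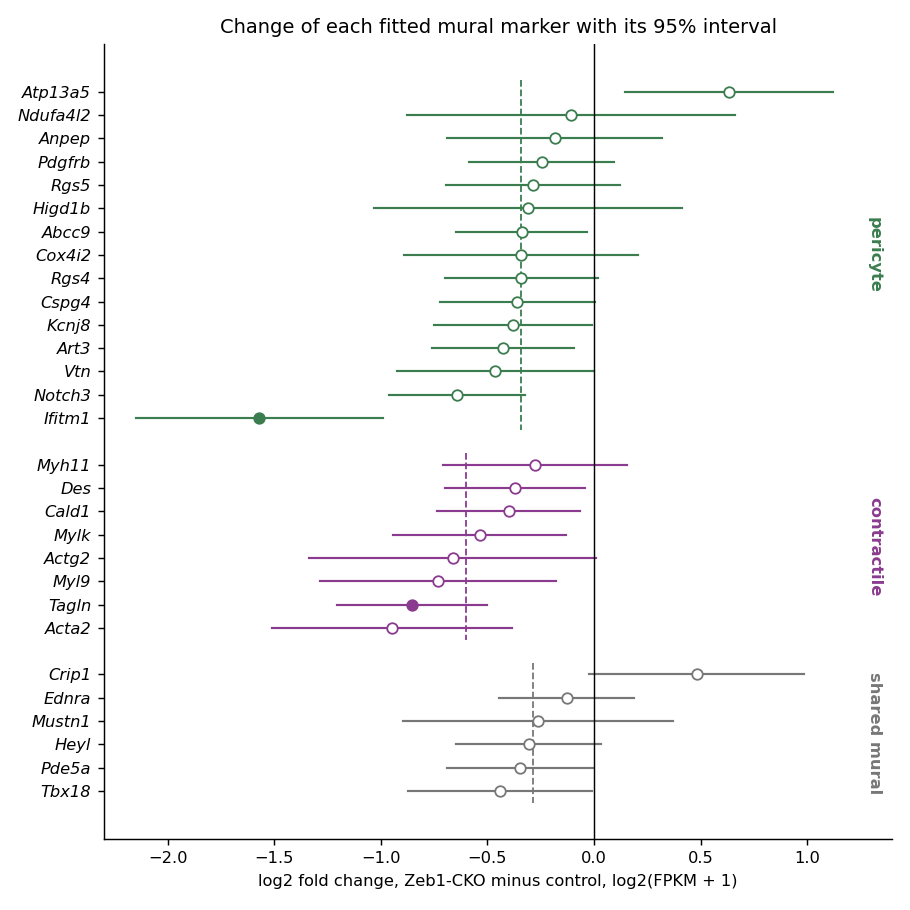
Log2 fold change of each tested mural marker, Zeb1-CKO minus control on the log2(FPKM + 1) scale (horizontal axis), with 95% intervals from limma as bars. Filled points have an adjusted p under 0.05 (Ifitm1 and Tagln), and dashed lines mark the group medians of -0.34, -0.60 and -0.29. Rgs5 turned positive under quantile normalization.

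Pdgfrb encodes the receptor through which mural cells are recruited. It measured 76.7 and 83.8 FPKM in control sorts against 63.5 and 71.7 FPKM in Zeb1-CKO sorts. The groups did not overlap, but the log2 fold change of -0.25 had a 95% interval from -0.59 to 0.10, with a limma adjusted p of 0.421. Rgs5 measured 1673 and 1348 FPKM in control sorts against 1201 and 1262 FPKM in Zeb1-CKO sorts. Its Zeb1-CKO mean was 81.5% of the control mean, and the gap between the 2 controls was wider than that between control 2 and Zeb1-CKO 2. Rgs4, a related regulator, was at 169.9 and 164 FPKM against 120.1 and 144 FPKM. For these 3 genes the Zeb1-CKO libraries were the lower pair, by an amount that did not pass the test.

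Cspg4, which encodes the proteoglycan NG2 of the pericyte surface, measured 14.8 and 16.9 FPKM in control sorts against 12.8 and 11.4 FPKM in Zeb1-CKO sorts. Kcnj8 and Abcc9 encode the pore and the regulatory subunit of the ATP-sensitive potassium channel that sets the membrane potential of pericytes. Kcnj8 was at 149 and 123 FPKM against 100.0 and 108 FPKM. Abcc9 was at 42.8 and 41.9 FPKM against 33.8 and 32.8 FPKM. The 2 channel subunits stood at 76.3% and 78.6% of their control means. Adjusted p by limma was 0.267 for Kcnj8 and 0.240 for Abcc9. Vtn, which encodes the matrix protein vitronectin, measured 152 and 153 FPKM in control sorts against 93.5 and 130.3 FPKM in Zeb1-CKO sorts. The controls were thus close together and the Zeb1-CKO pair was spread.

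Notch3 encodes the Notch receptor of mural cells. Its values were 19.6 FPKM in each control and 12.2 and 12.3 FPKM in the Zeb1-CKO libraries, a log2 fold change of -0.64 (SE 0.13). This was the second-lowest fold change among the pericyte markers, with a tight pair in each genotype, and it missed the threshold at a limma adjusted p of 0.0650. Heyl, a transcription factor gene induced by Notch signalling in mural cells, was at 31.3 and 27.5 FPKM against 23.0 and 24.1 FPKM. Its level was 80.04% of the control mean. The ratio of Notch3 to Pdgfrb within a library was 0.256 and 0.234 in control sorts against 0.191 and 0.171 in Zeb1-CKO sorts. Notch3 was therefore lower also relative to Pdgfrb in both Zeb1-CKO libraries.

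Ifitm1 was the pericyte-list gene that fell. It encodes an interferon-induced transmembrane protein and is not restricted to mural cells. Its values were 39.2 and 24.6 FPKM in control sorts against 9.30 and 10.4 FPKM in Zeb1-CKO sorts. The control mean was 31.9 ± 10.3 FPKM and the Zeb1-CKO mean 9.83 ± 0.743 FPKM (SD, n = 2 each), a 3.25-fold fall, and the groups did not overlap. The log2 fold change was -1.57 (SE 0.23), with an adjusted p of 0.0315 by limma. Of all tested genes, 0.293% had a lower log2 fold change. Without Zeb1-CKO replicate 1 the adjusted p was 0.171 and without replicate 2 it was 0.148. A near-identical transcript of the gene Gm7676, at 97.5% identity over 319 bases, stood at no more than 0.563 FPKM in any library.

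Higd1b, Ndufa4l2 and Cox4i2 encode small mitochondrial proteins linked to low oxygen and mark pericytes in many tissues. They varied as much within a genotype as between the genotypes. Ndufa4l2 measured 154 and 79.2 FPKM in control sorts against 96.8 and 108 FPKM in Zeb1-CKO sorts. Higd1b was at 204 and 151 FPKM against 108 and 186 FPKM, and Cox4i2 at 69.5 and 47.3 FPKM against 40.5 and 50.2 FPKM. For all 3 genes the groups overlapped. The fold change of Ndufa4l2 changed sign without control replicate 1 (0.37), and that of Higd1b without Zeb1-CKO replicate 1 (0.08). The longest annotated transcripts of these 3 genes and Ifitm1 are under 1000 bases. For these 4 the median of control 1 minus control 2 was 0.60 on the log2 scale, against -0.03 over all 1900 tested genes of that length. The part of transcript length in this spread was not tested.

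Anpep, Art3 and Atp13a5 were lowly or moderately expressed. Anpep, which encodes the surface aminopeptidase CD13, was at 6.17 and 5.24 FPKM against 4.03 and 5.89 FPKM, and the groups overlapped. Its fold change turned positive (0.04) without Zeb1-CKO replicate 1. Art3, an ADP-ribosyltransferase family gene, measured 14.6 and 14.7 FPKM in control sorts against 11.04 and 10.2 FPKM in Zeb1-CKO sorts, with an adjusted p of 0.179 by limma. The chemokine gene Cxcl10 overlaps Art3 from the other strand over 133 of 3932 exon bases, and the library kit keeps no strand. Atp13a5, a P5-type ATPase gene that marks brain pericytes, went against the rest of the list. It measured 1.37 and 1.275 FPKM in control sorts against 3.01 and 2.23 FPKM in Zeb1-CKO sorts. Both Zeb1-CKO values were above both controls, with a log2 fold change of 0.63 (SE 0.20) and a limma adjusted p of 0.179.

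Among the contractile genes, Acta2, which encodes smooth muscle alpha-actin, and Myl9, which encodes the regulatory light chain of smooth muscle myosin, were the most abundant pair with Myl9 first. Both are known targets of serum response factor (SRF), which binds the CArG box. Their start regions are shown because these 2 genes carry most of the contractile signal. RefSeq promoter windows on GRCm38.p6, from 250 bases before to 50 after the start, were matched for 24 of the 32 genes. Those without a window were Pdgfrb, Higd1b, Ndufa4l2, Cox4i2, Myh11, Tagln, Actg2 and Heyl. The CArG box was searched exactly and with at most 1 letter of its A/T core off, and being a palindrome it covers both strands. In the sequences, written 5′ to 3′, capitals mark each match. The Acta2 stretches, on the minus strand, show 2 matches with 10 bases on each side, and they lie in the first exon of a longer GENCODE transcript. The start deposited for Acta2, chr19:34255336, lies downstream of both stretches. The Myl9 stretch, on the plus strand, covers 206 bases up to its GENCODE start.
Acta2, chr19:34255438-34255467: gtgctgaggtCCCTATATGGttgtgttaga
Acta2, chr19:34255388-34255417: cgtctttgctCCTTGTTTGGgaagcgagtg
Myl9, chr2:156775214-156775419: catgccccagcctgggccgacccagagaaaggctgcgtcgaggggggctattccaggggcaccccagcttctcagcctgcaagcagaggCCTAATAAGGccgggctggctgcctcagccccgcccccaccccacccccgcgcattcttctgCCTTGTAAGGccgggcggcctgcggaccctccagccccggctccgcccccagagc

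The first bases of the Acta2 matches lie at -84 and -34 from the RefSeq start, and those of Myl9 at -161 and -99. The match of Myl9 at -161 is exact, and the other 3 have 1 core letter off. An exact CArG box was found in 1.63% of all 32851 windows, and one with at most 1 core letter off in 9.98%. With that tolerance it was found in 2 of 8 contractile genes with a window (Acta2 and Myl9), in 0 of 11 pericyte markers and in 2 of 5 shared genes (Tbx18 and Crip1). The E-box CACCTG, the type of site bound by ZEB1, was searched on both strands. It was found in 5 of the 24 genes (Art3, Lmod1, Myl9, Pde5a and Vtn) and in 20.2% of all windows. For Crip1 and Art3 the RefSeq window lies well inside the GENCODE gene. The Crip1 window begins at chr12:113151762, downstream of the GENCODE start at 113146316. The Art3 window begins at chr5:92387884, downstream of the GENCODE start at 92331827. A match describes the letters in the window and does not show a bound site.

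Acta2 measured 126 and 92.7 FPKM in control sorts against 46.8 and 65.7 FPKM in Zeb1-CKO sorts. The highest Zeb1-CKO value was below the lowest control, and the mean was 51.5% of the control mean. The log2 fold change was -0.95 (SE 0.23, 95% interval -1.51 to -0.39), with a limma adjusted p of 0.101. Myl9 was at 391 and 283 FPKM against 173 and 232 FPKM, or 60.0% of the control mean, with an adjusted p of 0.173. In both genes control 1 was the highest library and Zeb1-CKO 1 the lowest. Neither difference passed the threshold.

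Tagln, which encodes the actin-bundling protein SM22-alpha, was the contractile gene that fell. It lies on chromosome 9 from 45929619 to 45936058 on the minus strand (mm10). Its values were 16.6 and 14.8 FPKM in control sorts against 7.85 and 8.57 FPKM in Zeb1-CKO sorts, a log2 fold change of -0.85 (SE 0.14) with an adjusted p of 0.0429 by limma. The call ended when any 1 of the 4 libraries was left out, with adjusted p from 0.0859 to 0.195 and log2 fold changes from -0.93 to -0.78. Of its exon bases 62.4% are shared with the antisense gene Gm48529, and reads of the pair cannot be told apart by strand. Gm48529 measured 4.15 and 4.01 FPKM in control sorts against 3.31 and 4.14 FPKM in Zeb1-CKO sorts.

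Mylk, which encodes the kinase that phosphorylates the myosin light chain, was at 17.9 and 14.9 FPKM against 11.9 and 10.1 FPKM. Cald1, which encodes the actin-binding protein caldesmon, was at 41.5 and 42.1 FPKM against 33.6 and 29.4 FPKM. Des, which encodes the muscle intermediate filament desmin and also marks pericytes, was at 23.8 and 25.3 FPKM against 19.6 and 18.0 FPKM. For these 3 genes the Zeb1-CKO means were 67.0%, 75.4% and 76.5% of the control means. Each had a limma unadjusted p under 0.05 and an adjusted p of 0.173 to 0.232. Cald1 and Des also occur outside smooth muscle. Their log2 fold changes of -0.40 and -0.37 were nearer to the pericyte median than those of Acta2 and Tagln. The same held for Myh11, a gene restricted to smooth muscle, at -0.28.

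The genes most restricted to mature smooth muscle were scarce. Myh11, the smooth muscle myosin heavy chain, measured 2.45 and 2.18 FPKM in control sorts against 1.69 and 1.78 FPKM in Zeb1-CKO sorts. Actg2, the enteric smooth muscle actin, was at 5.48 and 3.03 FPKM against 1.88 and 2.61 FPKM. Both genes had the Zeb1-CKO libraries below the controls, with limma adjusted p of 0.477 and 0.286. Cnn1, which encodes calponin, ran from 0.0411 to 0.284 FPKM over the 4 libraries, and Lmod1, an actin nucleator of smooth muscle, from 0.275 to 0.698 FPKM. Pln, which encodes the calcium pump inhibitor phospholamban, was at 0.842 FPKM in control 1 and at 0.0906 to 0.278 FPKM in the other libraries. Over their longest transcripts these levels equal about 1.64 to 11.8 fragments for Cnn1, 18.2 to 38.4 for Lmod1 and 2.36 to 40.4 for Pln. These 3 genes were below the minimum mean of 1 FPKM and were not tested in the main fit. With a minimum mean of 0.1 FPKM they were tested and not called. Pln also shares 59.6% of its exon bases with Gm47644 on the opposite strand.

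The balance of the groups can be read within a library, where the library total cancels. Summed contractile expression was 22.5% and 21.1% of summed pericyte expression in control sorts against 15.5% and 17.2% in Zeb1-CKO sorts. The pericyte sum itself was 2787 and 2273 FPKM in control sorts against 1909 and 2145 FPKM in Zeb1-CKO sorts. The contractile sum was 626 and 479 FPKM against 297 and 368 FPKM. The genotypes did not overlap for either sum or for their ratio. These sums rest mainly on Rgs5 and on Myl9 with Acta2. The ratio of Acta2 to Pdgfrb was 1.64 and 1.11 in control sorts against 0.736 and 0.917 in Zeb1-CKO sorts, and that of Tagln to Pdgfrb was 0.216 and 0.176 against 0.124 and 0.120. By contrast, the ratio of Rgs5 to Pdgfrb was 21.8 and 16.1 in control sorts against 18.9 and 17.6 in Zeb1-CKO sorts, with both Zeb1-CKO values between the controls.

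**Figure D3:**
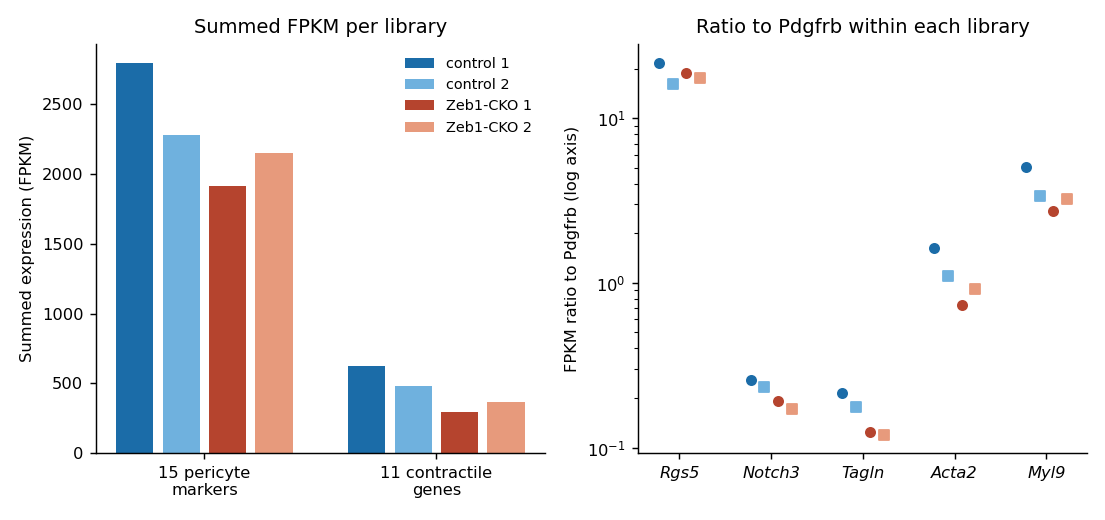
Left, summed FPKM of the 15 pericyte and 11 contractile genes in each of the 4 libraries (bars from 0). Right, FPKM of 5 mural genes divided by that of Pdgfrb in the same library (log axis, 1 point per library); Rgs5 overlaps between genotypes, while Notch3, Tagln, Acta2 and Myl9 are lower in both Zeb1-CKO libraries.

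The shared group was mixed. Pde5a, which encodes the cGMP-degrading phosphodiesterase that opposes relaxation, was at 7.38 and 7.11 FPKM against 5.51 and 5.44 FPKM. Tbx18, a transcription factor gene of mural cells, was at 4.58 and 3.997 FPKM against 2.56 and 3.25 FPKM. Ednra, the endothelin A receptor through which endothelin constricts mural cells, was at 43.3 and 40.5 FPKM against 37.3 and 39.2 FPKM, or 91.3% of the control mean. These 3 genes had no overlap between genotypes and limma adjusted p of 0.272, 0.270 and 0.661. Mustn1, a small nuclear protein gene of muscle, overlapped at 6.33 and 6.84 FPKM against 3.92 and 7.12 FPKM, and its fold change turned positive (0.10) without Zeb1-CKO replicate 1. Crip1, a LIM-domain protein gene found in many cell types, measured 41.6 and 46.7 FPKM in control sorts against 51.4 and 74.5 FPKM in Zeb1-CKO sorts. It was higher in both Zeb1-CKO libraries, with an adjusted p of 0.298 by limma.

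A list of 19 tested further mural genes had a median log2 fold change of -0.25. Of the 19, 14 were negative, against 47.2% of all tested genes. At an unadjusted p under 0.05 by limma, 6 were lower and 3 higher, against 7.35% and 10.5% of all tested genes. Bgn, which encodes the matrix proteoglycan biglycan, fell from 107 and 97.9 FPKM to 58.1 and 57.2 FPKM, with a log2 fold change of -0.82 (SE 0.13) and a limma adjusted p of 0.0359. The other 18 did not pass. Mcam, a surface adhesion gene of mural and endothelial cells, was higher, at 161 and 149 FPKM against 113 and 119 FPKM in the controls, with an adjusted p of 0.176. Foxc1, a transcription factor gene needed in brain mural cells, was at 8.66 and 8.79 FPKM against 5.31 and 3.47 FPKM, with an adjusted p of 0.0935.

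Genes through which endothelium and mural cells signal to each other were mixed, and their difference from the mural lists was not tested. Of 27 tested recruitment genes 16 were negative, against 47.2% of all tested genes. Both Zeb1-CKO libraries lay below both controls for 14 and above them for 9, against 22.3% and 27.1% of all tested genes. Of the 27, 0 passed, and the median log2 fold change was -0.10. At an unadjusted p under 0.05 by limma, 4 were lower and 5 higher, against 7.35% and 10.5% of all tested genes. The lower ones were Hbegf, Tgfbr3, Smad4 and Edn1, and the higher ones Pdgfra, Pdgfd, Pdgfc, Angpt2 and Ednrb. Pdgfb, the endothelial ligand of PDGFRB, measured 28.5 and 28.0 FPKM in control sorts against 24.4 and 27.1 FPKM in Zeb1-CKO sorts, with an adjusted p of 0.668. The most abundant members were Eng, a TGF-beta coreceptor gene, at 223 and 236 FPKM against 202 FPKM in each Zeb1-CKO library, and S1pr1, a sphingosine phosphate receptor gene, at 195 and 196 FPKM against 189.6 and 173 FPKM. Pdgfra, which marks retinal astrocytes and fibroblasts rather than pericytes, was higher, at 37.8 and 37.6 FPKM against 25.8 and 22.9 FPKM, with an adjusted p of 0.0810.

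The widely expressed relatives of the contractile genes were mixed, and their difference from the contractile list was not tested. Among 22 tested non-muscle contractile genes 0 passed, and the median was -0.11. At an unadjusted p under 0.05 by limma, 4 were lower and 3 higher, against 7.35% and 10.5% of all tested genes. The lower ones were Tpm2, Tpm3, Myh9 and Ppp1r12a, and the higher ones Tpm4, Myh14 and Tagln2. The cytoplasmic actins Actb and Actg1 were at 85.5% and 109% of their control means, beside 51.5% for Acta2. Tagln2 was at 127%, beside 52.4% for Tagln, and the light chains Myl12b, Myl6 and Myl12a were at 92.6%, 81.7% and 74.5%, beside 60.0% for Myl9. The non-muscle myosin heavy chain Myh9, at 70.6%, was lower than the 75.01% of Myh11. The tropomyosin Tpm3 was at 70.1% and Tpm4 at 132%. Tpm2, a tropomyosin of muscle, was the lowest of this list at 53.7%, with 13.0 and 12.8 FPKM against 6.00 and 7.85 FPKM and an adjusted p of 0.0684. Of 10 tested genes of the SRF pathway, 0 passed. At an unadjusted p under 0.05 by limma, 3 were lower (Synm, Tgfb1i1 and Csrp2), against 7.35% of all tested genes. Srf was at 5.23 and 8.004 FPKM against 5.46 and 6.66 FPKM. Myocd, the smooth muscle cofactor of SRF, was at 0.158 to 0.251 FPKM in all libraries. The most abundant of this list, Csrp1 and Vim, were at 125% and 96.0% of their control means.

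**Figure D4:**
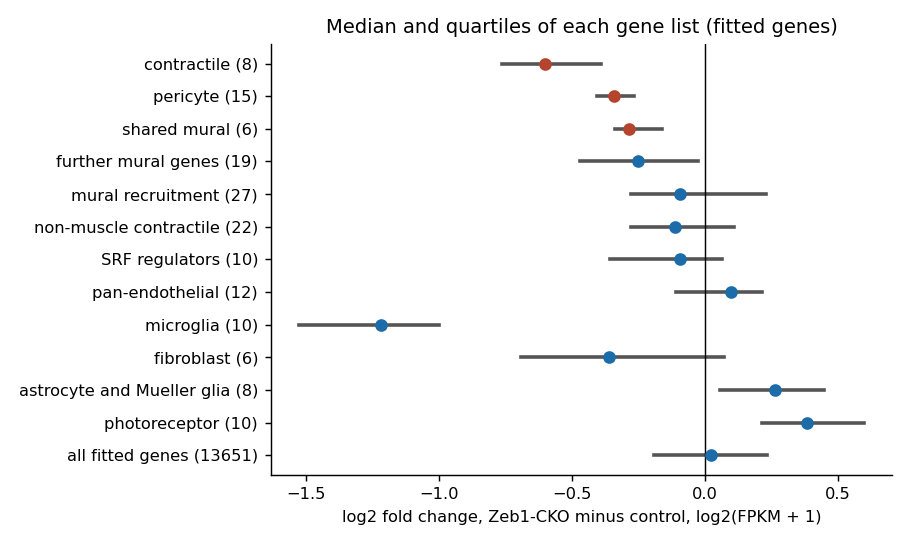
Median log2 fold change (points) and quartiles (bars) of each gene list, Zeb1-CKO minus control on the log2(FPKM + 1) scale, with the number of tested genes in brackets. The contractile, pericyte and shared mural lists (upper 3) lie at -0.60, -0.34 and -0.29, against 0.02 over all tested genes.

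Values of markers of other cells also differed among the libraries. Microglial markers had a median log2 fold change of -1.22 over 10 tested of 12 genes. Of the 10, 9 were negative, against 47.2% of all tested genes, and 0 passed limma's threshold. At an unadjusted p under 0.05, 6 were lower and 1 higher, against 7.35% and 10.5% of all tested genes. Tyrobp, the signalling adaptor of microglia, was highest in control 2, at 5.12 and 19.1 FPKM in control sorts against 1.86 and 1.67 FPKM in Zeb1-CKO sorts. Lyz2, which encodes lysozyme, was at 9.27 and 18.3 FPKM against 14.1 and 1.48 FPKM, and the groups overlapped. Fibroblast markers had a median of -0.36 over 6 tested of 10 genes, and 0 passed limma's threshold. At an unadjusted p under 0.05, 2 were lower and 1 higher, against the same shares of all tested genes. The 2 lower ones encode fibrillar collagens: Col1a2 was at 6.00 and 7.74 FPKM in control sorts against 2.75 and 3.285 FPKM in Zeb1-CKO sorts, with a limma adjusted p of 0.0575, and Col3a1 was at 19.3 and 26.4 FPKM against 12.7 and 13.7 FPKM, with 0.111. The higher one was Pdgfra. The list summed to 70.5 to 77.8 FPKM in all libraries, of which Pdgfra made up the largest share in 3 of 4, while Dcn was at no more than 0.0701 FPKM and Lum was listed at 0 in 3 libraries. Astrocyte and Müller glia markers summed to 374 and 399.8 FPKM in control sorts against 407 and 467 FPKM in Zeb1-CKO sorts, with Aqp4 listed at 0 in both controls. Their median was 0.26 over 8 tested of 10 genes, and 0 passed. At an unadjusted p under 0.05 by limma, 1 was lower and 2 higher, against 7.35% and 10.5% of all tested genes. The higher ones were Dkk3 and Slc1a3. The lower one, Glul, was at 71.9 and 64.8 FPKM against 44.9 and 45.3 FPKM. Gfap was at 137 FPKM in Zeb1-CKO 2 and at 56.7 to 68.2 FPKM in the other libraries. Photoreceptor markers summed to 141 FPKM in control 1, 20.8 FPKM in control 2, and 74.2 and 92.4 FPKM in the Zeb1-CKO libraries. The groups overlapped for all 10 tested photoreceptor genes. The part of these other cells in the mural differences was not tested.

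Within a genotype the mural genes also differed in a shared direction. Of the 29 tested genes 72.4% were higher in control 1 than in control 2, against 52.8% of all tested genes. The same share, 72.4%, was higher in Zeb1-CKO 2 than in Zeb1-CKO 1, against 56.2% of all. The median absolute difference between the 2 libraries of a genotype, on the log2 scale, was 0.21 in the controls and 0.20 in the Zeb1-CKO libraries for the contractile genes, and 0.18 and 0.16 for the pericyte genes. It was 0.19 in each genotype for all tested genes. The median level of a list in a library rests on its middle genes. These were Cox4i2 for the pericyte list and Des with Mylk for the contractile list. The pooled SD of that level within a genotype, on the log2 scale, was 0.31 and 0.09. It describes those genes and not the spread of the lists. Acta2, for example, differed by 0.44 between the controls and by 0.48 between the Zeb1-CKO libraries. The median fold changes of -0.34 and -0.60 can therefore not be sized against these SDs.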

How the data were processed

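Per the submitters' processing notes, reads were handled with Trimmomatic 0.36, HISAT2 2.1.0 and StringTie 1.3.3 on build mm10; the sources used here give no settings or annotation. The FPKM values were made and deposited by the authors; their unit follows from the tools and the values, since no header states it. FPKM are not counts, so no count test was run. No label ties the 2 libraries per genotype to different animals. Every p-value therefore reflects just the variation among these samples, which may be technical.

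Genotypes were compared on log2(FPKM + 1) in limma 3.58.1 under R 4.3.3, letting the variance follow intensity. The 13651 genes whose mean reached 1 FPKM were tested, and calls needed a Benjamini-Hochberg adjusted p under 0.05. Fold changes on this scale understate the change of low genes. The fit was also run on simulated data, drawn for each gene alone from the variances of the same fit. That run cannot address shifts shared between genes. All 32 members are named, and from other lists the called genes, up to 4 by smallest p, and the 2 most abundant where none was called; relatives of contractile genes, Pdgfb, Pdgfra, Mcam, Foxc1, Tpm2, Srf, Myocd and other-cell markers were chosen after their values were seen. Some values of the microglial list, its sum included, are not reported here. The members and lists were chosen with earlier results of these data known.

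Spans are from GENCODE M21, where 30 of 32 member identifiers matched in version. Those of Acta2 and Notch3 did not. Near-identical transcripts (at least 95% identity over 80% of the shorter) were sought with BLAST 2.17.0. Depth was estimated from steps of FPKM times length in genes with 1 transcript over 600 bases: 17.1% to 21.7% of low values lay within 0.02 of a whole step, against 4% at random. Amplified reads carry no molecular identifiers. Figures used matplotlib 3.10.9.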

Additional observations from a re-analysis of the deposited data

How the results depend on the processing

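With 2 libraries per genotype the calls were fragile, while the pericyte and contractile medians, the list medians that were recomputed, kept their sign in all alternatives. With all libraries 123 genes were lower and 304 higher. Leaving out 1 library, where the lone sample of a genotype is assumed to vary like the others, gave 15 to 59 lower and 44 to 224 higher genes, and 0 to 1 members called lower. The pericyte median then ranged from -0.44 to -0.23 and the contractile median from -0.80 to -0.41. The fits without 1 library have fewer samples; for the other changes the cause was not tested.

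The same-numbered samples of the 2 genotypes are not known to be pairs, and their deviations correlated at -0.12 across genes. With the replicate number as a block, 38 genes were lower, 155 higher and 0 members were called. With the crossed pairing, added after seeing the data, 149 genes were lower, 306 higher and 4 members were called lower. A minimum mean of 0.1 FPKM gave 68 lower genes and 1 member, and a minimum of 5 FPKM gave 169 higher genes. With any value above 0, which tests more genes, 15 were lower, 70 higher and 0 members were called. Pan-endothelial scaling and a fit with no intensity trend each left 1 member called. Median-ratio scaling, quantile normalization and pseudocounts of 0.1 and 0.5 kept 2 members.

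Rgs5 had a log2 fold change of 0.10 under quantile normalization. Leaving out 1 library took Ndufa4l2 from -0.59 to 0.37, Higd1b from -0.70 to 0.081, Anpep from -0.41 to 0.043 and Mustn1 from -0.62 to 0.10. Cnn1, Lmod1 and Pln, which rest on few fragments, were below the minimum mean of the main fit.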
